A study of Mus musculus with 9 samples.

Results

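The cytosolic ribosomal protein genes are described here in the tibia of mice with normal glucose tolerance (NGT), of diabetic mice given saline (T1D) and of diabetic mice given liraglutide (Lira). They were chosen by symbol alone, as *Rps* or *Rpl* with a number, the stalk proteins *Rplp0*, *Rplp1* and *Rplp2*, and *Rpsa*, which gave 84 of the 18272 genes in the table. Earlier results of these data were known at that choice. Of these, 32 belong to the small and 52 to the large ribosomal subunit. S6 kinase genes such as *Rps6kb1* and the mitochondrial ribosomal proteins were not members, and neither were *Fau*, *Rpl36al* and *Rack1*, cytosolic ribosomal proteins whose symbols follow another pattern.

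All mice were female C57BL/6J, 10 to 11 weeks old at purchase. NGT mice received vehicle in place of streptozotocin, which kills pancreatic beta cells, and saline per the labels, whereas T1D and Lira mice both carried streptozotocin-induced diabetes, which models beta-cell loss without autoimmunity. Liraglutide, which activates the GLP-1 receptor, was given to Lira mice at 0.6 mg/kg/day for 8 weeks, and Lira mouse 3 is labelled with 9 weeks. For each group, 1 library was sequenced from 1 tibia of each of 3 mice.

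The ribosome translates mRNA into protein, and its small subunit reads the codons while its large subunit joins the amino acids. In most cells, the mRNAs of ribosomal proteins are among the most abundant and are made in near-equal proportion. They are known as TOP mRNAs, because they begin with a C and a run of pyrimidines, through which the mTOR pathway controls their translation. In striated muscle, *Rpl3l* takes the place of *Rpl3* in part of the ribosomes.

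Because TOP mRNAs are defined by their first bases, the sequence around the transcription start is shown first. Promoter sequences from RefSeq (build GRCm38.p6) matched 64 of the 84 members by gene number, with 76 starts, since 10 members had several. The windows below hold the 35 bases before the start and the first 25 bases of the transcript, 5′ to 3′ on the gene's own strand, and capitals mark a C followed by at least 7 letters C or T within 25 bases of the start. They were chosen for the results that follow. *Rpl12* and *Rps28* had the largest non-overlapping differences between T1D and NGT mice, *Rpl35* and *Rps15a* kept closest to the other members, and *Rps6*, *Rpl7l1* and *Rpl3l* departed from them.
Rpl12, chr2:32961677-32961736, plus strand: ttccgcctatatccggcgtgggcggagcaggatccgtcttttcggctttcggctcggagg
Rps28, chr17:33824538-33824597, minus strand: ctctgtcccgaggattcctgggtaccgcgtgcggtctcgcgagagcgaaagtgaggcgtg
Rpl35, chr2:39005107-39005166, minus strand: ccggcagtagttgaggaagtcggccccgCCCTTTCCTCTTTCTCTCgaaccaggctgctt
Rps15a, chr7:118116123-118116182, minus strand: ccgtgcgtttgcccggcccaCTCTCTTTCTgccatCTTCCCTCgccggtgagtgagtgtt
Rps6, chr4:86857343-86857402, minus strand: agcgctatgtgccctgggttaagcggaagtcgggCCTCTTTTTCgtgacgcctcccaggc
Rpl7l1, chr17:46782632-46782691, minus strand: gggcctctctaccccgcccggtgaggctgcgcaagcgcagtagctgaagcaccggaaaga
Rpl3l, upstream start, chr17:24727791-24727850, plus strand: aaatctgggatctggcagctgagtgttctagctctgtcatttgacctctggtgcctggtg

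A tract of this kind lay near the start in 34 of the 64 members (53.1%), compared with 17.7% of the 27025 genes with a promoter sequence and 19.6% of the 11033 such genes that were tested. *Rpl12*, *Rps28*, *Rpl7l1* and *Rpl3l* had no match, which says only that these letters are not in the window. The letters CCGGAAGT, the core read by ETS factors, stood on either strand between 250 bases before and 50 after the start in 12 members (18.8%), against 4.31% of all genes and 8.33% of the tested genes. AAGATGGC, the core read by YY1, was found in the same window on either strand in 6 members (9.38%), against 3.19% of all and 4.91% of the tested genes. TATAAA in the 50 bases before the start, on the gene's strand, occurred in 1 member (1.56%), against 3.15% of all and 2.04% of the tested genes. None of these patterns contains another. They are descriptions of the letters and not binding sites.

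Library totals lay between 13086373 and 16528394 estimated counts, and a gene with 0 counts may hold up to 3, or 0.163 to 0.238 CPM. Here CPM is the usual depth-scaled count after correction by TMM, a method that centres the libraries on the bulk of their genes, and FPKM, which is also divided by gene length, is used for levels between genes. A gene was tested if it had at least 10 counts in at least 3 libraries, which 81 members passed (32 small-subunit and 49 large-subunit genes) among 13960 genes. The 3 members that failed were *Rpl10l*, *Rpl32l* and *Rpl39l*, close relatives of other members, with at most 9 counts in any library. The labelled tissue was checked against marker lists. A list of 20 skeletal muscle genes took 15.1% to 26.7% of the counts of a library although the bones had been cleaned of muscle, whereas 7 osteocyte genes took at most 0.00499% and 12 osteoblast genes 0.0423% to 0.927%, with T1D mouse 1 highest in both bone lists. In such bulk RNA, fewer cells of a type and less RNA per cell cannot be told apart.

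The members took 1.84%, 1.31% and 1.504% of all counts in NGT mice 1 to 3, 2.68%, 1.999% and 2.26% in the T1D mice, and 1.55%, 1.43% and 2.36% in the Lira mice. All T1D libraries therefore lay above all NGT libraries, and Lira mouse 3 lay among the T1D mice while the other 2 Lira mice lay within the NGT range. The group means were 1.55% ± 0.265 in NGT, 2.31% ± 0.344 in T1D and 1.78% ± 0.506 in Lira (SD, n = 3). With the 20 muscle genes left out of the totals, the shares were 2.01% ± 0.260, 2.94% ± 0.293 and 2.27% ± 0.538, in the same order of groups. The small subunit genes took 0.592% ± 0.115, 0.892% ± 0.149 and 0.681% ± 0.216 of the counts, and the large subunit genes took 0.959% ± 0.150, 1.42% ± 0.195 and 1.09% ± 0.290.

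**Figure D1:**
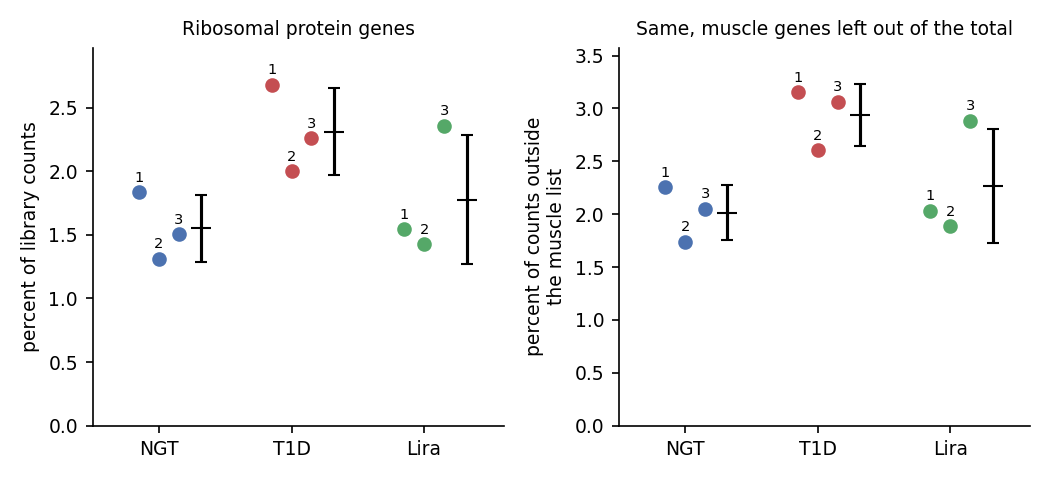
Percent of a library's counts in the 84 ribosomal protein genes (vertical axis) for each mouse, numbered within its group, over all counts (left) and over the counts outside the 20 muscle genes (right). Bars show the mean ± SD of 3 mice. The T1D mice lie at 1.999% to 2.68% and the NGT mice at 1.31% to 1.84% on the left, and Lira mouse 3 (2.36%) stands apart from Lira mice 1 and 2.

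By FPKM averaged over the 9 libraries (± SD, n = 9), the highest members were *Rps2* (830 ± 159.9), *Rps24* (757 ± 208) and *Rps15* (522 ± 142) of the small subunit and *Rpl23a* (734 ± 174), *Rplp1* (649 ± 190.1) and *Rplp0* (603 ± 148) of the large one. Neighbours in this order differed by less than these SDs, except *Rps24* and *Rps15*. At the low end of the tested members stood *Rps6* (6.87 ± 2.43), *Rps15a* (20.3 ± 5.63) and *Rps20* (42.5 ± 13.3), and *Rpl7l1* (16.6 ± 2.91), *Rpl22l1* (34.7 ± 9.51) and *Rpl22* (68.6 ± 18.1). The lengths implied by the ratio of counts to FPKM were 5194 bases for *Rps15a*, 3473 for *Rps20* and 2617 for *Rpl7l1*, against a median of 685 for the tested members, so that their low FPKM goes with long gene models. *Rps6*, whose protein is the main substrate of S6 kinase, is not of that kind, with an implied length of 1383 bases and 7.47 to 14.4 CPM. Its estimated counts were not whole in any library, as for 22 members in all, among them *Rpl3l*, *Rps20*, *Rps25* and *Rpl30*. Over the members 32.1% of counts were not whole, against 30.2% over all genes. Ribosomal protein genes have many processed copies in the genome, and how the counting treated reads that match several places is not given in the sources used here, so single levels are uncertain.

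T1D mice were compared with NGT mice to describe diabetes without treatment. Of the 81 tested members, 80 had a higher level in T1D mice (52.1% of all tested genes), with a median log2 fold change of 0.53 (1.45-fold), while the median over all 13960 genes was 0.02. The differences were alike across the members, and the middle 50% of them lay between 0.45 and 0.58. The median was 0.54 for the small and 0.52 for the large subunit. The thresholds, a fold change over 2 together with an adjusted p under 0.05 in edgeR's quasi-likelihood test, were passed by 0 of 81 members (background 0%), and the lowest adjusted p among them was 0.977. At an unadjusted p under 0.05, 63 members were higher (background 2.36%) and 0 were lower (background 1.6%, and 3.95% in either direction). In 71 members every T1D mouse lay above every NGT mouse, which held for 3.52% of all tested genes, and in 0 members below (background 5.08%).

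The count of 63 rested on single libraries to a large extent, as it was 15 without NGT mouse 2 (1.07% of all genes higher), 17 without T1D mouse 3 (3.45%) and 37 without NGT mouse 1 (4.51%), while the median log2 fold change stayed between 0.45 and 0.60 whichever mouse was left out. In DESeq2, 68 members were higher and 0 lower at an unadjusted p under 0.05 (2.89% and 2.11% of all genes), and 2 genes of the whole table had an adjusted p under 0.05 (background 0.0143%). Both were members, *Rpl23a* and *Rps25*, with log2 fold changes of 0.50 (SE 0.127) and 0.57 (SE 0.144), DESeq2's adjusted p of 0.0498 each, and a change below the fold threshold. As a further setting, the replicate number was used as a block, a pairing read from the data and not given by the labels. EdgeR then gave 68 members higher and 0 lower at an unadjusted p under 0.05, where the shares of all genes were 3.04% and 2.35%. With only the NGT and T1D libraries in that fit, 75 members were higher and 1, *Rpl3l*, lower (8.14% and 5.85% of all genes), with a lowest adjusted p of 0.232 among the members. Part of these rises in the count was thus common to all genes.

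**Figure D2:**
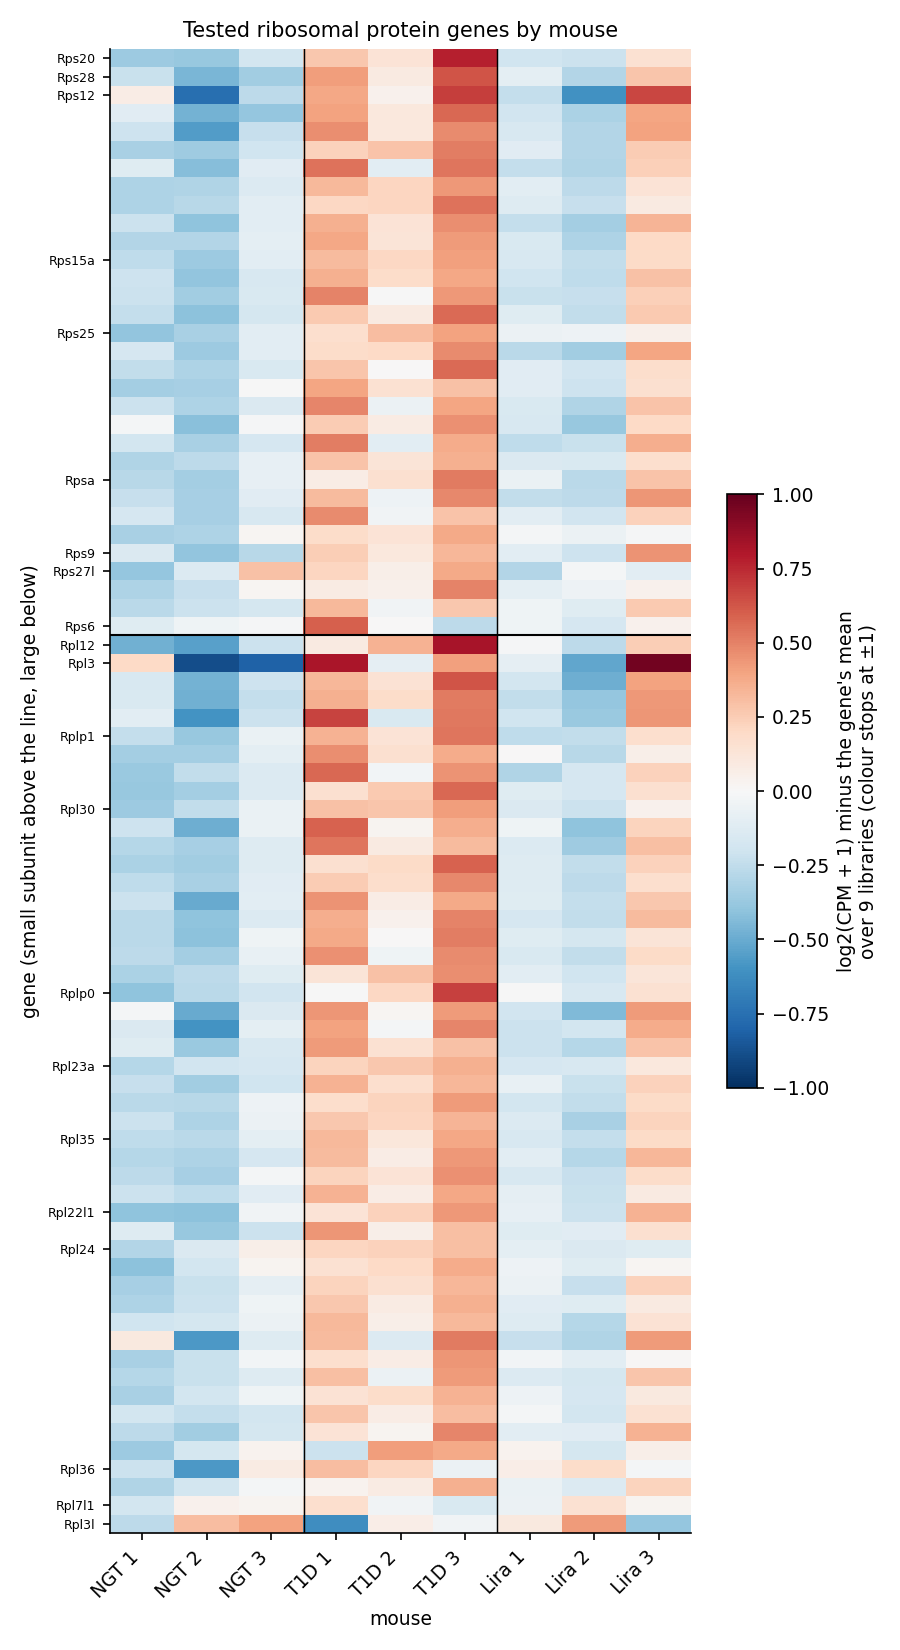
Each row is 1 of the 81 tested members (small subunit above the line, large below, each ordered by the mean of the T1D mice, with names for genes described in the text), and each column is 1 mouse. Colour gives log2(CPM + 1) minus the gene's mean over the 9 libraries. T1D mice 1 and 3 and Lira mouse 3 are red in nearly all rows, and NGT mice 1 and 2 are blue in most rows. *Rpl3l* in the last row runs the other way in T1D mouse 1, Lira mouse 3 and NGT mouse 2, but not in NGT mouse 1.

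Among proteins of the large subunit, *Rpl12* (NCBI gene 269261), which lies at the base of the stalk where elongation factors bind, had the largest difference. Its levels were 201, 192 and 243 CPM in NGT mice, 299, 359 and 498 CPM in T1D mice and 279, 235 and 334 CPM in Lira mice. Every T1D mouse thus lay above every NGT mouse, with T1D mouse 3 farthest, and the Lira mice lay between the group means. The log2 fold change of T1D against NGT mice was 0.86 (SE 0.24, p = 0.00603, adjusted p = 0.977 in edgeR), and an exact two-sided permutation test over the mice gave p = 0.1, the smallest that 3 against 3 allow. Without T1D mouse 3 it was 0.63.

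*Rps28* (gene 54127), a small protein near the mRNA exit of the small subunit, came next among the members whose NGT and T1D mice did not overlap. Its levels were 50.1, 42.3 and 45.8 CPM in NGT, 78.7, 62.3 and 91.0 CPM in T1D and 54.7, 47.7 and 71.3 CPM in Lira mice. The Lira mice overlapped with both of these groups. The log2 fold change of T1D against NGT mice was 0.75 (SE 0.20, p = 0.00517, adjusted p = 0.977 in edgeR, exact permutation p = 0.1). *Rps25* (gene 75617), a small-subunit protein known for its part in initiation at viral internal entry sites, had the lowest p of the members. It stood at 117, 123 and 143 CPM in NGT, 173, 192 and 204 CPM in T1D and 148, 149 and 159.6 CPM in Lira mice. The 3 groups did not overlap at any point for this gene, with Lira mice between the others. Its log2 fold change was 0.57 (SE 0.15, p = 0.00420, adjusted p = 0.977 in edgeR, exact permutation p = 0.1) for T1D against NGT mice.

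*Rpl23a* (gene 268449), at the tunnel exit where the nascent chain leaves the ribosome, was at 314, 335 and 341 CPM in NGT, 447, 462 and 489 CPM in T1D and 341, 343 and 412 CPM in Lira mice. The T1D mice lay above the mice of both other groups, which overlapped with each other. *Rps25* and *Rpl23a* were chosen after their values were seen, for the p-values they carry.

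The stalk proteins, which recruit elongation factors to the ribosome, gave a mixed picture. *Rplp0* (gene 11837) was at 598, 658 and 692 CPM in NGT, 789, 913 and 1270.1 CPM in T1D and 789, 708 and 879 CPM in Lira mice, with a log2 fold change of 0.61 (SE 0.23) for T1D against NGT. For *Rplp1* the mean was 236 ± 25.6 CPM in NGT and 351 ± 48.8 CPM in T1D mice without overlap. *Rplp2*, its partner in the stalk, overlapped between these groups, with 132 ± 30.1 and 179 ± 40.0 CPM (SD, n = 3), since NGT mouse 1 at 159.9 CPM lay above T1D mouse 2 at 135 CPM.

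Other members with a well-known role showed similar differences. *Rpl5* and *Rpl11*, which bind Mdm2 with 5S rRNA when ribosome assembly is disturbed, had log2 fold changes of 0.53 (SE 0.17) and 0.52 (SE 0.17) between T1D and NGT mice. In the case of *Rps19* and *Rps14*, genes linked to inherited and acquired failure of red cell production, the log2 fold changes were 0.70 (SE 0.23) and 0.52 (SE 0.21). *Rpl13a*, a part of the interferon-driven GAIT complex, was at 0.64 (SE 0.25), *Rpl38*, needed for translation of *Hox* mRNAs, at 0.58 (SE 0.23), and *Rps27a*, which is made as a fusion with ubiquitin, at 0.57 (SE 0.21). *Rps3*, which also has an activity in DNA repair, was at 0.47 (SE 0.16), and *Rpsa*, also known as a laminin receptor, was at 0.49 (SE 0.22). Except for *Rpsa* (p = 0.0563 in edgeR, exact permutation p = 0.1), each of these had an unadjusted p under 0.05 in edgeR, none had an adjusted p below 0.977, and in all 9 the NGT and T1D mice did not overlap, as in 71 of the 81 members and 3.52% of all genes.

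**Figure D3:**
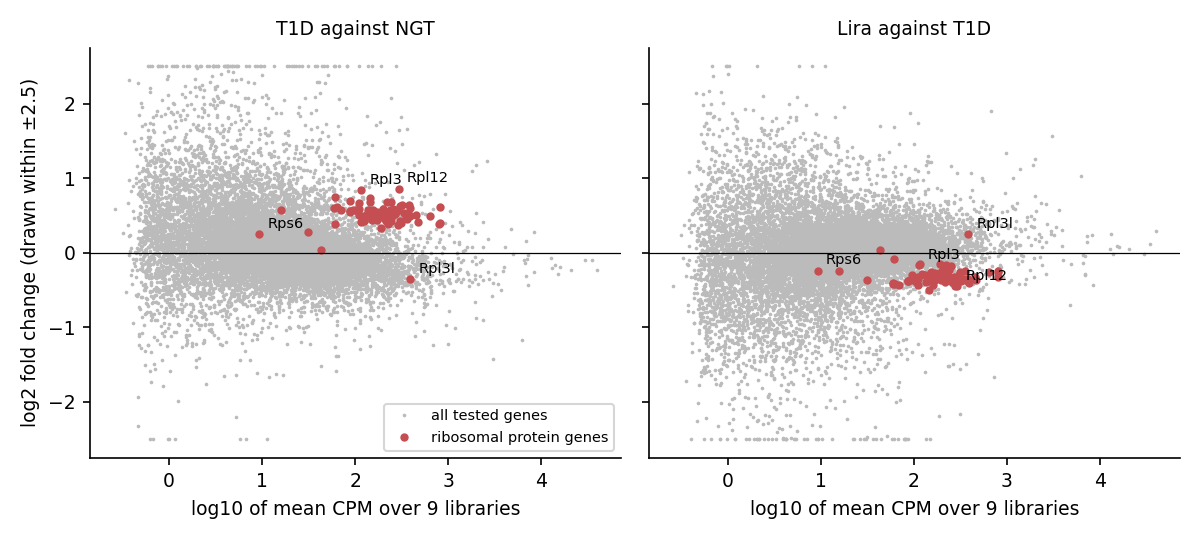
Log2 fold change from edgeR (vertical axis) against the log10 of mean CPM over the 9 libraries for all 13960 tested genes (grey) and the 81 tested ribosomal protein genes (red), for T1D against NGT (left) and Lira against T1D (right). Most red points form a narrow group around 0.53 on the left and around -0.34 on the right, and *Rpl3l* lies on the other side of 0 in both.

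In 10 members the NGT and T1D mice overlapped. These were *Rpl3*, *Rpl3l*, *Rpl4*, *Rpl7l1*, *Rpl36*, *Rpl41*, *Rplp2*, *Rps6*, *Rps12* and *Rps27l*. *Rpl3* (gene 27367), which lies at the peptidyl transferase centre, spread widely with 120.2, 56.1 and 59.5 CPM in NGT, 185, 98.6 and 139.8 CPM in T1D and 98.3, 72.7 and 206 CPM in Lira mice. NGT mouse 1 and Lira mouse 3 lay far above the others of their groups, and all 3 groups overlapped. The log2 fold change for T1D against NGT was 0.84 (SE 0.45, p = 0.0974 in edgeR, exact permutation p = 0.2), and between 0.60 without T1D mouse 1 and 1.29 without NGT mouse 1. Within same-numbered mice, *Rpl3* was higher in the T1D mouse of all 3 pairs, and the block fit of the NGT and T1D libraries alone gave 0.89 with an unadjusted p under 0.05 and an adjusted p of 0.232 in edgeR. The labels do not give these pairs, and without them the groups overlapped.

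Its muscle paralog *Rpl3l* (gene 66211) was the 1 tested member with a lower mean in T1D than in NGT mice. Its levels were 316, 469.7 and 501 CPM in NGT, 245, 397 and 369 CPM in T1D and 404, 509 and 289 CPM in Lira mice, so the groups overlapped. The log2 fold change was -0.35 (SE 0.29, p = 0.267 in edgeR, exact permutation p = 0.3), and without T1D mouse 1 it was -0.16. *Rpl3l* was lower in the T1D mouse of all 3 same-numbered pairs, and that block fit gave -0.35 with an unadjusted p under 0.05 and an adjusted p of 0.335 in edgeR. Here too the pairs were read from the data and not from the labels. Within the pair, *Rpl3l* made up 83.6% ± 9.85 of the summed FPKM in NGT, 70.0% ± 11.5 in T1D and 75.4% ± 15.3 in Lira mice (SD, n = 3), which do not separate. The 3 libraries lowest in *Rpl3l* CPM, T1D mouse 1, Lira mouse 3 and NGT mouse 1, were also the 3 lowest in the share of the muscle list, with 15.1%, 18.3% and 18.5%, and the part of muscle RNA in this result was not tested.

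**Figure D4:**
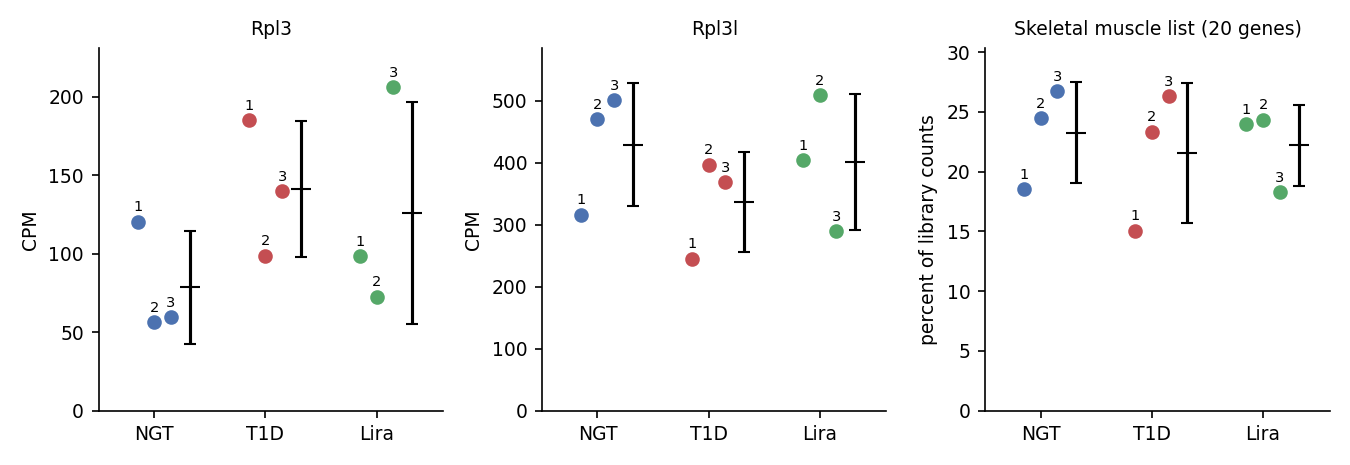
CPM of *Rpl3* (left) and *Rpl3l* (middle) and the percent of counts in the 20 muscle genes (right) for each mouse, numbered within its group, with the mean ± SD of 3 mice as bars. T1D mouse 1, Lira mouse 3 and NGT mouse 1 are the lowest 3 in *Rpl3l* (245, 289 and 316 CPM) and in the muscle share, and the highest in *Rpl3* within their groups.

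Of the other paralog pairs, *Rpl7l1*, a factor close to *Rpl7* in sequence, was level across groups at 42.0 ± 3.75, 43.1 ± 5.02 and 44.3 ± 3.39 CPM in NGT, T1D and Lira mice, whereas *Rpl7* itself was at 301 ± 27.3, 418 ± 40.1 and 329 ± 55.4 CPM. Its log2 fold change for T1D against NGT was 0.04 (SE 0.14). *Rps27l*, a target of p53, was at 29.8 ± 7.57, 36.2 ± 4.17 and 28.1 ± 2.83 CPM, and its share of the FPKM of the pair with *Rps27* lay between 9.49% and 13.6%. *Rpl22l1* kept close to *Rpl22* in every library, at 30.2% to 36.0% of the FPKM of that pair, and had a log2 fold change of 0.58 (SE 0.21) where *Rpl22* had 0.47 (SE 0.17). *Rpl39l*, best known from the testis, made up at most 0.520% of its pair with *Rpl39*. *Rpl10l* was seen with 1 count at most in any library. *Rps4l* was not analysed here.

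Lira mice were compared with T1D mice to describe treatment under diabetes. These comparisons share the T1D mice, so that a high level in T1D mice alone places a gene above 0 in the former and below 0 in the latter. In Lira mice 79 of 81 members had a lower level than in T1D mice and 2 a higher one (55.3% of all genes were higher). Their median log2 fold change was -0.34 against 0.04 over all genes, and the middle 50% of members lay between -0.38 and -0.27. Above 0 were *Rpl3l* at 0.25 (SE 0.29) and *Rpl7l1* at 0.04 (SE 0.14). No member passed the thresholds in edgeR (0 of 81, background 0%), the lowest adjusted p was 0.978, and DESeq2 called 0 members (background 0.00716%, 1 gene). At an unadjusted p under 0.05, 7 members were lower (background 1.78%) and 0 higher (background 1.55%, and 3.33% in either direction) in edgeR, and 16 were lower in DESeq2 (2.33% of all genes). Other edgeR settings gave 13 lower with the replicate block (1.75% of all genes), 3 with no low-count filter (1.77%) and 1 with only the 2 groups compared (1.25%). With that choice and the block together 0 were lower (0.802%), and limma gave 12 (1.28%). In 16 members every Lira mouse lay below every T1D mouse, against 3.4% of all tested genes.

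The Lira group was not uniform, and mouse 3 decided much of this comparison. Relative to each gene's mean over the 9 libraries, the median member stood at -0.12 and -0.23 in Lira mice 1 and 2 and at 0.22 in Lira mouse 3 on the log2 scale. T1D mice stood at 0.32, 0.10 and 0.43, and NGT mice at -0.26, -0.33 and -0.11. Without Lira mouse 3, the median log2 fold change of Lira against T1D mice was -0.49 and 48 members were lower at an unadjusted p under 0.05, where 1.96% of all genes were. That count was 14 without T1D mouse 2 (2.36% of all genes), 3 without NGT mouse 1 (1.76%) or NGT mouse 3 (1.39%) and 1 without NGT mouse 2 (1.53%). It was 0 without T1D mouse 3 (3.29%), Lira mouse 1 (0.781%) or Lira mouse 2 (1.51%). The libraries of the untreated controls enter here through the shared estimate of the spread.

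The largest differences were those of *Rps20*, *Rplp1* and *Rpl12*. *Rps20* (gene 67427), a protein of the head of the small subunit, was at 110.0, 109 and 124 CPM in NGT, 171, 156 and 243 CPM in T1D and 123, 122 and 158 CPM in Lira mice. Lira mouse 3 overlapped with T1D mouse 2, and the log2 fold change of Lira against T1D was -0.50 (SE 0.21, p = 0.0387, adjusted p = 0.978 in edgeR, exact permutation p = 0.2). For *Rplp1* it was -0.45 (SE 0.20) and for *Rpl12* -0.45 (SE 0.24), and among the members below 0 the smallest difference was that of *Rpl36*, a large-subunit protein, with -0.09 (SE 0.19). Without T1D mouse 3 the differences were -0.28 for *Rps20*, -0.34 for *Rplp1* and -0.22 for *Rpl12*.

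The lowest p belonged to *Rpl30* (gene 19946), a large-subunit protein at the interface between the subunits, which was at 123, 133 and 151 CPM in NGT, 194, 192 and 211 CPM in T1D and 143, 136 and 163 CPM in Lira mice. Its T1D mice lay above the mice of both other groups, with a log2 fold change of -0.44 (SE 0.15, p = 0.0186, adjusted p = 0.978 in edgeR, exact permutation p = 0.1). *Rpl30* was chosen after its values were seen. *Rpl24*, also at that interface, was at 329, 332 and 350.1 CPM in T1D and 264, 256 and 260.5 CPM in Lira mice, all Lira mice below all T1D mice, and its log2 fold change was -0.37 (SE 0.16, p = 0.0414, adjusted p = 0.978 in edgeR, exact permutation p = 0.1).

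Lira and NGT mice differ both in diabetes and in treatment, and both groups also enter the comparisons above. Here 78 of 81 members were higher in Lira mice (55.5% of all genes), with a median log2 fold change of 0.19 against 0.04 over all genes. None passed the thresholds in edgeR or DESeq2 (0 of 81, background 0%), and 0 members had an unadjusted p under 0.05 with either tool, where 0.487% of all genes were higher in edgeR. In 6 members, *Rpl8*, *Rpl11*, *Rpl19*, *Rplp0*, *Rps13* and *Rps25*, all Lira mice lay above all NGT mice (background 2.49%). The largest log2 fold changes were those of *Rpl3* (0.68, SE 0.45), *Rpl12* (0.41, SE 0.24) and *Rps9* (0.35, SE 0.20), and the lowest those of *Rpl3l* (-0.10, SE 0.29), *Rps27l* (-0.09, SE 0.20) and *Rpl24* (-0.00, SE 0.16). Without Lira mouse 3 the median was 0.06 with 60 members above 0, and the share of counts in the members was then 0.0649 percentage points lower in Lira than in NGT mice. *Rpl3* and *Rps9* were then at 0.12 and 0.11, *Rpl12* at 0.28.

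Same-numbered NGT and T1D mice deviated from their group means together across all genes, although the labels do not pair them. Within numbers, 80, 79 and 77 of the 81 members were higher in the T1D mouse for numbers 1, 2 and 3 (47.7%, 50.7% and 53.5% of all genes). The median log2 differences were 0.56, 0.47 and 0.54, where all genes had -0.03, 0.01 and 0.04. In 77 members the T1D mouse was higher in all 3 pairs, as in 19.2% of all tested genes.

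The members moved from library to library largely as 1 block. A member's SD of log2(CPM + 1) over the 9 libraries had a median of 0.29, and of 0.10 once the library's median member was subtracted, lower in 77 of 81 members. *Rpl35* and *Rps15a* were the closest to the other members with SDs of 0.03 and 0.04, and *Rpl3l* (0.57), *Rpl3* (0.49) and *Rps12* (0.30) were the farthest. In 79 members the highest library was T1D mouse 1, T1D mouse 3 or Lira mouse 3, and in 79 the lowest was NGT mouse 1, NGT mouse 2 or Lira mouse 2. These libraries were named after the values were seen. T1D mouse 3 alone was highest for 57 members and NGT mouse 2 lowest for 48. Members with and without the pyrimidine tract described above had similar medians, at 0.51 (n = 32) and 0.54 (n = 29) for T1D against NGT and -0.32 and -0.34 for Lira against T1D. A counted tract can lie before the start, so this split does not separate TOP mRNAs from others.

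Several values moved with these libraries, and their part in the results was not tested. The 17 measured erythroid genes took 0.0927% to 0.883% of counts in NGT, 0.122% to 1.86% in T1D and 0.153% to 3.47% in Lira mice, highest in Lira mouse 3 and T1D mouse 3. The 20 neutrophil genes reached 0.702% and the 20 cell cycle genes 0.163% in Lira mouse 3, against at most 0.349% and 0.0609% elsewhere. In T1D mouse 1 the 12 macrophage genes reached 0.276%, against at most 0.0740% elsewhere. The 13 osteoclast genes were highest in the libraries where most members were highest, with 0.0625% in T1D mouse 1, 0.0547% in Lira mouse 3 and 0.0383% in T1D mouse 3, and at most 0.0357% elsewhere. Of the 12 tested osteoclast genes, 8 were above 0 for T1D against NGT (median log2 fold change 1.65, 2 higher and 1 lower at an unadjusted p under 0.05) and 4 for Lira against T1D (median -0.68, 1 higher and 1 lower). The medians of chondrocyte genes (1.49 and -0.86), adipocyte genes (0.55 and -0.70), macrophage genes (2.08 and -1.22) and osteoblast genes (1.04 and -1.20) had the same signs. So had osteocyte (0.91 and -0.21) and plasma cell genes (0.36 and -0.30). Chondrocyte, adipocyte and osteoblast shares were highest in T1D mouse 1 (0.194%, 0.357% and 0.927%), against at most 0.0614%, 0.289% and 0.264% elsewhere. The medians of B cell genes (-0.34 and 1.63), endothelial genes (-0.17 and 0.21) and muscle genes (-0.15 and 0.02) had the opposite signs. Those of erythroid genes (0.85 and 0.98), cell cycle genes (0.44 and 0.99) and T and NK cell genes (0.72 and 0.11) were above 0 in both comparisons, and those of neutrophil genes were -0.03 and 1.10. None of the genes measured in these lists was at 0 in all libraries. Without T1D mouse 1 and Lira mouse 3 together, a choice made after seeing the data, the median for T1D against NGT was 0.48 with 55 members higher at an unadjusted p under 0.05 in edgeR (1.73% of all genes), and for Lira against T1D -0.47 with 31 members lower (1.24% of all genes).

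The members are short genes, with a median implied length of 685 bases against 2897 for all tested genes, and length went with the direction of other genes. With the other genes divided into 5 equal bins of length, the median log2 fold change of T1D against NGT ran from 0.07 in the shortest bin (113 to 1648 bases) to -0.05 in the longest. Among genes of at least 50 CPM it ran from -0.00 (553 genes) to -0.19 (703 genes). In Lira against T1D mice the medians of the latter were -0.04 in the shortest and 0.19 in the longest bin. The part of length in the members' medians was not tested.

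Other genes of the translation machinery were read from lists. Of the cytosolic ribosomal proteins that the symbol rule leaves out, *Rack1*, a scaffold on the small subunit, had a log2 fold change of 0.51 (SE 0.17) for T1D against NGT and -0.32 for Lira against T1D. *Fau*, which encodes a small-subunit protein fused to a ubiquitin-like one, was at 0.57 (SE 0.32) and -0.20, and *Rpl36al* was at 0.20 (SE 0.17) and -0.14. All T1D mice lay above all NGT mice for *Rack1* (background 3.52%), while the groups overlapped for *Fau* and *Rpl36al*.

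The 78 mitochondrial ribosomal proteins, which serve the separate ribosome of that organelle, had a median of -0.16 for T1D against NGT. Of them 11 were above 0, 8 had all T1D mice below all NGT mice (background 5.08%), and 0 had an unadjusted p under 0.05 in edgeR. The 72 ribosome biogenesis factors, which process rRNA and assemble the subunits, had a median of -0.08, with 25 above 0 and with 0 higher and 1 lower at an unadjusted p under 0.05, the 37 initiation factors one of -0.01 with 0 in either direction, and the 36 genes of the mTOR route and of TOP mRNA control one of -0.05 with 0 in either direction. The 14 elongation factors had a median of 0.02 with 0 in either direction, and in 2 of them all T1D mice lay above all NGT mice (background 3.52%). Their summed share of counts was 0.737% to 0.932% in T1D and 0.667% to 0.724% in NGT mice, without overlap. Among them *Eef1a1*, which delivers aminoacyl-tRNA and whose mRNA is a TOP mRNA, was at 0.78 (SE 0.50) and its muscle form *Eef1a2* at -0.26 (SE 0.31), named after their values were seen.

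Between Lira and T1D mice, the biogenesis factors had a median of 0.19, with 58 of 72 above 0, 7 higher and 0 lower at an unadjusted p under 0.05 (background 1.55% and 1.78%), and 13 in which all Lira mice lay above all T1D mice (background 3.74%). The mitochondrial ribosomal proteins had a median of 0.09 and the initiation factors 0.09, both with 0 genes at an unadjusted p under 0.05, the mTOR list 0.12 with 1 higher, and the elongation factors -0.03 with 0. No gene of these lists passed the thresholds in edgeR in any comparison.

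**Figure D5:**
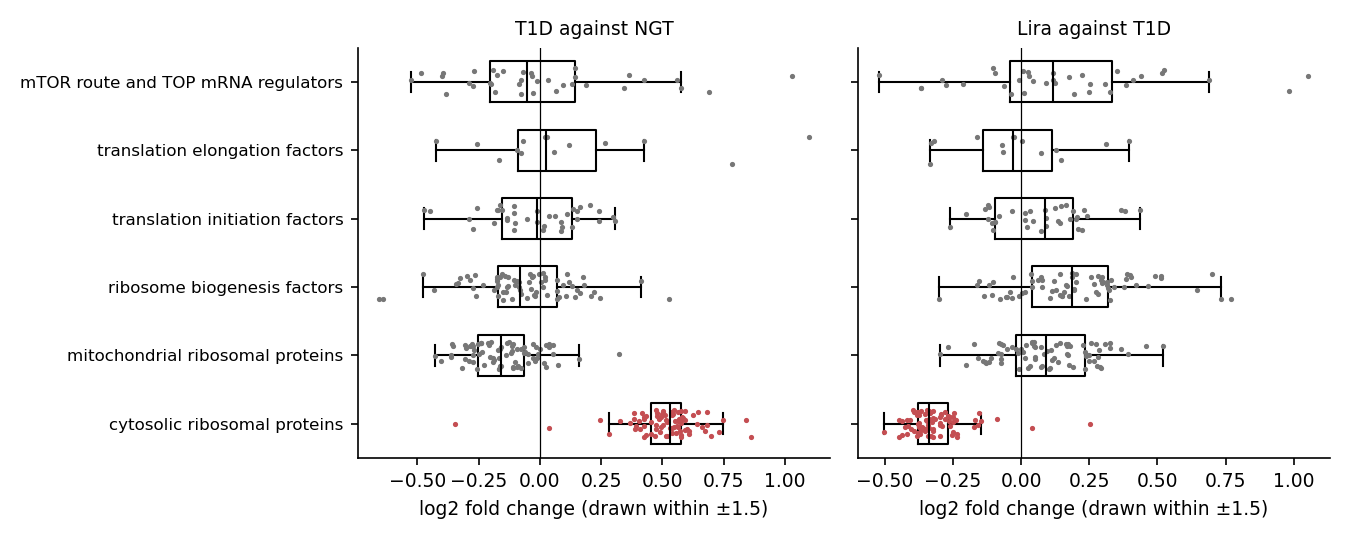
Log2 fold changes from edgeR for T1D against NGT (left) and Lira against T1D (right), with 1 point per tested gene and a box for the median and the middle 50% (whiskers reach the last point within 1.5 box lengths), for the 81 cytosolic ribosomal protein genes (red) and 5 other lists. The red points centre on 0.53 and -0.34, and the other lists have medians between -0.16 and 0.19.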

How the data were processed

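Tibial RNA of 3 mice in each of the NGT, T1D and Lira groups gave 1 library per mouse. After alignment of clean reads, the authors deposited gene-wise expected counts without normalization and FPKM values. The build listed in the submitters' processing notes is mm9, and the aligner, counter and strand setting are not given in the sources used here. Members, 32.1% of whose counts were not whole numbers (tolerance 1e-06), and lists were chosen with earlier results of these data known. Labels placed all 9 libraries in their groups, which left 0 columns unmatched. Group means that the authors deposited were not used.

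Expected counts were rounded, and genes reaching 10 counts in 3 or more libraries were fitted in R 4.3.3 with edgeR 4.0.16 (TMM, glmQLFit, glmQLFTest, 1 mean per group over all 9 libraries, biological coefficient of variation 0.433). Genes were called at a Benjamini-Hochberg adjusted p under 0.05 and a fold change over 2. Tests were two-sided, with exact permutation over mice for single genes. P-values measure the spread between these mice. Limits from counts cover counting error only. Reads shared with processed copies or paralogs can make single members uncertain. The procedure was tested on simulated data.

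Named for fold change were the 3 highest and 3 lowest members of at least 5 CPM in each comparison, *Rpl3* and *Rpl3l*, and for level the 3 highest and lowest of each subunit by FPKM, paralog pairs and members with a well-known role. Alternatives were DESeq2 1.42.0, limma 3.58.1 on log2(CPM + 1), library size or RLE factors, TMM without muscle genes and members, no filter, the compared groups alone, a replicate block and leaving out each mouse. Same-numbered NGT and T1D mice correlated at r = 0.583, 0.647 and 0.283 in their deviations from the group means of log2 CPM (prior count 2), each over 0.1. On this ground alone the numbers were used to pair these groups. The sources used here name no pairing of mice, so pairs and block fits are description only. Differently numbered NGT and T1D mice lay between -0.697 and 0.0668, but Lira mouse 3 and NGT mouse 1 also correlated, at 0.780. Lira mice were not paired, at -0.244, 0.615 and 0.271 with T1D and -0.173, 0.727 and 0.0125 with NGT mice.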

Additional observations from a re-analysis of the deposited data

How the results depend on the processing

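No member was called in any of the 60 alternatives, the median log2 fold change of the members kept its direction in all 57, and named fold changes kept theirs in 342 of 361. As a share of summed FPKM, the members' share differed by 1.83 percentage points between T1D and NGT and by -1.27 between Lira and T1D mice, in the same directions as for counts. With the replicate block, the pairing left every median in its direction, and *Rpl24* in Lira against NGT turned to 0.0017 (limma 0.0028). Library size turned *Rpl7l1* in Lira against T1D to -0.0748 and gave 44 members higher at an unadjusted p under 0.05 for T1D against NGT (1.7% of all genes). Without T1D mouse 1 and Lira mouse 3, *Rpl7l1* (-0.0771) and *Rps6* (-0.0897) turned for T1D against NGT, *Rpl36* (0.0461) for Lira against T1D and *Rpl3l* (0.0726) for Lira against NGT. The cause of these turns was not tested.

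Leaving out single mice, log2 fold changes ran from -0.0560 to 0.11 for *Rpl7l1* and -0.0675 to 0.43 for *Rps6* (T1D against NGT), -0.72 to 0.11 for *Rpl3* and -0.0307 to 0.14 for *Rpl7l1* (Lira against T1D), and -0.0836 to 0.0944 for *Rpl24*, -0.31 to 0.0902 for *Rpl3l* and -0.24 to 0.13 for *Rps27l* (Lira against NGT). With 3 mice a group, differences near 1.45-fold did not pass an adjusted p of 0.05 in edgeR.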
